A study of Mus musculus with 22 samples.

Results

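Cdk5, a serine/threonine kinase of postmitotic neurons, was examined together with its activator subunits and with kinases and microtubule proteins that act beside it, in primary motor cortex (M1) of mice lacking estrogen receptor beta. The 8 genes were Cdk5, Cdk5r1, Cdk5r2, Cdk5rap2, Gsk3b, Mark2, Ndel1 and Dpysl2, out of 15297 genes to which reads of a single symbol could be assigned. They were taken by symbol and held 101 of the 112460 features, or regions of RNA 5′ ends, in the count table. All 8 passed the filter on low counts in the comparisons of genotype and of side. The genes were chosen by the genotype difference in these samples, namely that Cdk5r1 had passed the threshold across all genes and that Mark2 had come close to it. Their genotype differences are therefore given as a description, and only the comparison of the right with the left biopsy, and of the genotype difference between the sides, was tested. The choice used both biopsies summed, and the right biopsy had more reads in most mice. The test of the genotype difference between the sides is thus not fully independent of the choice.

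The mutant group was male C57BL/6 BERKO mice, the name given to a whole-body knockout of Esr2, the gene of estrogen receptor beta. The control group was male C57BL/6 wild-type (WT) mice. Both were 16 to 20 weeks old and untreated. A right and a left M1 biopsy had been taken by needle puncture from each of 5 BERKO and 6 WT mice, which gave 22 libraries. Per the labels, 6 BERKO mice had entered the experiment, and BERKO replicate 1 was not analysed here. From 10 ng of RNA per biopsy, the 5′ end of each RNA was tagged at reverse transcription (STRT sequencing), so a read marks where an RNA molecule, or a fragment of one, began.

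Cdk5 has no activity alone. It is switched on by binding p35, the product of Cdk5r1, or p39, the product of Cdk5r2, and these activators restrict its activity largely to neurons, where it acts in neuronal migration, axon growth and synaptic function. Gsk3b encodes a kinase that often acts on proteins Cdk5 has already phosphorylated, and Mark2 encodes a kinase that releases tau and related proteins from microtubules. Ndel1, a dynein partner, and Dpysl2 (Crmp2), which carries tubulin to growing axons, are substrates of Cdk5.

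Total reads ranged from 1017873 to 1706160 per BERKO mouse and from 1429548 to 2911717 per WT mouse, and from 249751 to 2018833 per biopsy. The left biopsy of BERKO replicate 5 was read in 1 lane and the others in 3. The targeted gene could not check the labels at this depth, since Esr2 had 10 reads in 2 of 10 BERKO biopsies and 3 reads in 1 of 12 WT biopsies. Wells named in the column headers lay in plate rows D to F for BERKO and A to C for WT, with right biopsies in rows D and A, so the plate row cannot be told apart from either factor. The share of endogenous reads in coding sequence (CDS) and 3′ UTR features was 16.2% to 19.2% in BERKO mice and 11.3% to 16.8% in WT mice. Both biopsies of WT replicate 1 and the left biopsy of WT replicate 2 had stood apart in an earlier analysis of these data.

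Where the reads of each gene began differed widely among the 8 genes. Cdk5 and Ndel1 were read mainly at their start. A single feature upstream of the Cdk5 coding start, at position 23929381 on the minus strand of chromosome 5 (mm9), held 89.7% of its 3123 reads. For Ndel1, a 5′ UTR feature at 68666567 on the minus strand of chromosome 11 held 81.7% of 1202 reads. Dpysl2 was divided, with 44.5% of 1036 reads in 5′ UTR features and 41.0% in 3′ UTR features. Its largest feature was the 5′ UTR feature at 67487434 on the minus strand of chromosome 14, with 43.2% of the reads.

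The other 5 genes were read mostly away from their start. All 917 reads of Cdk5r1 lay in 3′ UTR features, and 97.4% of them in the feature at 80293456 on the plus strand of chromosome 11. Cdk5r2 had 83.3% of 538 reads in its 3′ UTR and 16.7% in CDS, and its largest feature lay at 74903255 on the plus strand of chromosome 1. The table listed no start feature for either activator gene. Gsk3b had 62.9% of 1716 reads in 3′ UTR features, led by the one at 38243885 on the plus strand of chromosome 16, and 4.02% at its start. Mark2 had 83.9% of 1899 reads in CDS features, led by the one at 7351581 on the minus strand of chromosome 19, and 5.00% at its start.

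Cdk5rap2, named for the binding of its centrosomal protein to the p35 activator, had 94.5% of its 1551 reads in a single intron feature, at 69910477 on the minus strand of chromosome 4, and 5.48% in a 5′ UTR feature. The mm9 positions of the 2 features lie 160871 bases apart. In GRCm38, the annotation places Ywhaq-ps3, a transcribed processed pseudogene of Ywhaq, in a Cdk5rap2 intron on the same strand, 161062 bases from the annotated Cdk5rap2 start. Transcripts annotated to Cdk5rap2 shared up to 435 bases at 100% identity with Ywhaq, a member of the 14-3-3 family, and stretches of at least 50 bases at 95% identity or more with 5 other genes in all. No such stretch was found for the other 7 genes. The level given for Cdk5rap2 is therefore uncertain. Over the 22 biopsies the deviations of Cdk5rap2 and Ywhaq from their group means had a Pearson r of -0.039. Cdk5r2 is overlapped in GRCm38, on its own strand, by the noncoding gene Gm16582, with which its reads could be mixed.

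**Figure D1:**
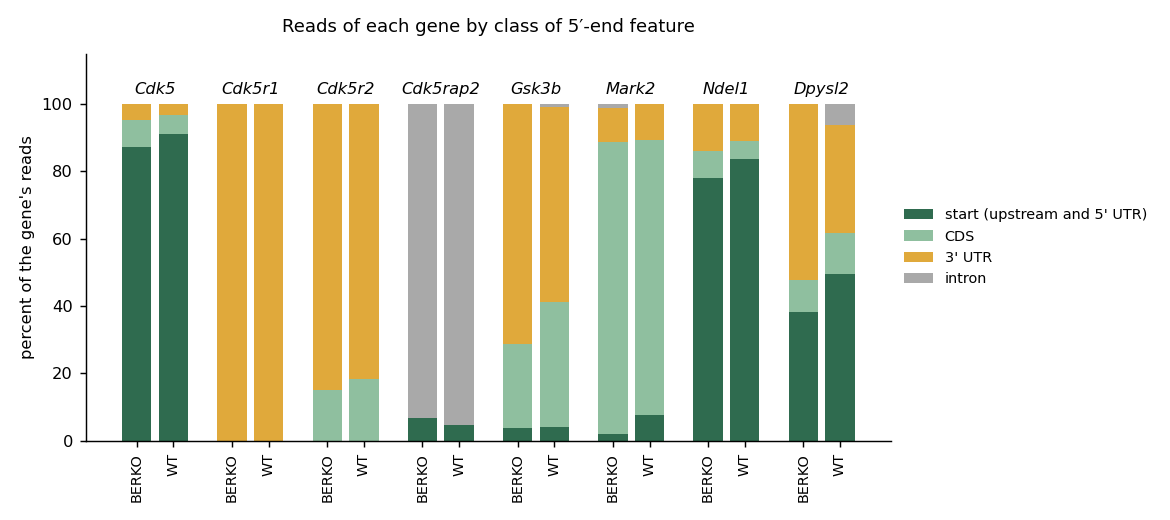
Stacked bars give the percent of each gene's reads (vertical axis) in start features (upstream and 5′ UTR), CDS, 3′ UTR and intron features, with reads of the 5 BERKO mice summed in the left bar and of the 6 WT mice in the right bar of each pair. Cdk5 and Ndel1 are mostly start reads, Cdk5r1 is 3′ UTR reads alone, Mark2 is mostly CDS and Cdk5rap2 mostly intron in both genotypes.

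The bases around annotated starts are shown because 5′-tagged reads of a complete RNA begin there. RefSeq promoter windows (build GRCm38.p6) were at hand for 5 of the 8 genes, namely Cdk5r2, Cdk5rap2, Gsk3b, Mark2 and Ndel1. Each sequence below runs 5′ to 3′ on the strand of the gene from 150 bases before the annotated start to 20 bases from it on, with GGGCGG or its reverse complement CCGCCC, the GC box bound by Sp1 family factors, in capitals. Ndel1 is shown as a gene whose reads did begin at its start, Cdk5r2 as one with no start feature listed, Mark2 for its 2 annotated starts and Cdk5rap2 for its few start reads.
Ndel1 (chr11:68853116-68853285, minus strand): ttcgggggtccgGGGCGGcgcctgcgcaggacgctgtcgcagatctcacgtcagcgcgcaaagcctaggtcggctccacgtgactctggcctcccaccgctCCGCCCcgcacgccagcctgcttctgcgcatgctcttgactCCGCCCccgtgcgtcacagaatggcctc
Cdk5r2 (chr1:74854879-74855048, plus strand): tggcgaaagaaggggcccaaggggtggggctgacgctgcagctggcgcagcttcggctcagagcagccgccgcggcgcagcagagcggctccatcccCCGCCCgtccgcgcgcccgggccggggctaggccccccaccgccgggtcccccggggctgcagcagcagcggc
Mark2, first annotated start (chr19:7341841-7342010, minus strand): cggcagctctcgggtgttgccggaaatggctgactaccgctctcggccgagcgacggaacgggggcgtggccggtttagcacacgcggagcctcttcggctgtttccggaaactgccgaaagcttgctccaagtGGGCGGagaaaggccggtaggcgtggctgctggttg
Mark2, second annotated start (chr19:7295428-7295597, minus strand): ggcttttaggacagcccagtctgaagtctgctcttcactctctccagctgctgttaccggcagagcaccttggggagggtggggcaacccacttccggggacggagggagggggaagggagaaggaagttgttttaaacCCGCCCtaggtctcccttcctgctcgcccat
Cdk5rap2 (chr4:70410416-70410585, minus strand): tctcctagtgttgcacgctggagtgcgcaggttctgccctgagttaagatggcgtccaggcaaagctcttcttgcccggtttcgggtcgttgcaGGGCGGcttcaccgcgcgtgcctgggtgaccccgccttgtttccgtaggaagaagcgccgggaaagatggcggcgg

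The Ndel1 window held 3 GC boxes, and each of the other 4 windows printed held 1. On both strands, this motif occurs in 30.3% of 32851 RefSeq mouse promoter windows of the same length. The Gsk3b window held no GC box, 2 CCAAT motifs (26.3% of windows hold at least 1) and 1 TATAAA (8.10%). The full estrogen response element, GGTCA and its reverse complement TGACC separated by 3 bases, occurred in none of these windows and in 0.0335% of all windows. The element GGTCA, which is contained in it, occurred once, in the Cdk5rap2 window, and in 25.8% of all windows. These matches describe the letters of the windows and are not evidence of binding.

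Levels by genotype are given first for the kinase, then for its activators and partners, in CPM, with both biopsies of a mouse summed. CPM are read counts of a gene scaled to a common total of reads in genes past the low-count filter. That total was adjusted for each library by its TMM factor. Since genes differ in length and in where their reads began, levels are compared between mice and not between genes. In bulk tissue, fewer cells of a type and less RNA per cell cannot be told apart. The kinase was read at nearly the same level in both genotypes. Cdk5 had 179, 167, 116, 148 and 206 CPM in BERKO replicates 2 to 6, against 168, 148, 182, 124, 176 and 149 CPM in WT replicates 1 to 6. The genotypes overlapped over nearly their whole range, and the log2 difference, BERKO over WT, was 0.050 ± 0.17 (standard error, n = 5 and 6 mice). Without the 3 WT libraries that stood apart it was 0.080 ± 0.17, and it was -0.045 ± 0.17 without BERKO replicate 6 and -0.012 ± 0.17 without WT replicate 4.

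Cdk5r1, the gene of the p35 activator, was the member with the largest log2 difference between the genotypes. It had 58.5, 106, 71.2, 98.8 and 76.0 CPM in BERKO replicates 2 to 6. In WT replicates 1 to 6 it had 13.9, 29.9, 29.7, 57.7, 32.2 and 29.9 CPM. Every BERKO mouse was above every WT mouse, by a small margin between BERKO replicate 2 and WT replicate 4, and the log2 difference was 1.35 ± 0.27, or 2.56-fold. Cdk5r1 was 1 of 4 genes called higher in BERKO by edgeR's quasi-likelihood test, which is 0.0443% of the 9025 genes tested, and it was chosen for that call. WT replicate 4, the highest WT mouse for Cdk5r1, had the highest CDS and 3′ UTR share among WT mice, 16.8%. WT replicate 1, the lowest for Cdk5r1, had a share of 13.6%. WT replicate 6 had the lowest share, 11.3%, with 29.9 CPM of Cdk5r1. A relation of this share to the Cdk5r1 level was not tested. With CDS and 3′ UTR features only, scaled on those features, the Cdk5r1 difference was 1.00 ± 0.26. It was no longer called, in a fit that called 0 of 4473 genes. The call (adjusted p = 0.0484) was also lost with limma-voom (adjusted p = 0.0948), which called 1 of 9025 genes. In edgeR the call was lost with a stricter filter (adjusted p = 0.0505). Without the 3 WT libraries the call was lost too, where the difference was 1.17 ± 0.25 (adjusted p = 0.0537). It was lost as well when any 1 of 8 of the 11 mice was left out, those other than BERKO replicate 2 and WT replicates 1 and 4. The call was kept in edgeR with spike-in scaling (adjusted p = 0.00794), no filter (0.00847) and right biopsies alone (0.0200). RLE in place of TMM scaling (0.0470) and the replicate block over mice 2 to 6 (0.0418) kept it too. DESeq2 gave Cdk5r1 no adjusted p (unadjusted p = 3.73e-06). Since the gene was chosen for its call, these fits are a description.

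Cdk5r2, the gene of the p39 activator, was low and uneven. It had 21.6, 31.7, 62.7, 27.6 and 58.3 CPM in BERKO replicates 2 to 6, against 2.14, 25.2, 23.4, 33.0, 20.4 and 36.2 CPM in WT replicates 1 to 6. BERKO replicates 4 and 6 were above every WT mouse and the other BERKO mice lay within the WT range. WT replicate 1, with 6 reads, was far below all other mice. The log2 difference was 0.81 ± 0.46, and 0.55 ± 0.33 without the 3 WT libraries. The CPM of Cdk5r2 in BERKO spread widely, with a mean of 40.4 ± 18.8, against 23.4 ± 12.0 in WT (SD, n = 5 and 6).

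Mark2 was the other gene without overlap between the genotypes. It had 132, 123, 163, 159 and 119 CPM in BERKO replicates 2 to 6, against 62.6, 93.7, 63.2, 94.5, 106 and 67.7 CPM in WT replicates 1 to 6. The log2 difference was 0.78 ± 0.19, or 1.71-fold, and 0.47 ± 0.20 with CDS and 3′ UTR features only. Without the 3 WT libraries it was 0.67 ± 0.19. Mark2 was not called by edgeR (adjusted p = 0.142). DESeq2 called it (adjusted p = 0.0174), as 1 of 45 genes of 2724. So did edgeR with spike-in scaling (adjusted p = 0.0481), as 1 of 45 genes of 9025. Mark2 was chosen for coming close to the threshold, so these calls are a description. Gsk3b had 43.1, 87.3, 109, 132 and 133 CPM in BERKO replicates 2 to 6, against 60.1, 70.3, 85.1, 119.8, 93.4 and 85.0 CPM in WT replicates 1 to 6. BERKO held both the lowest and the highest of these values, and the log2 difference was 0.24 ± 0.24. It was 0.16 ± 0.23 without the 3 WT libraries and -0.12 ± 0.24 with CDS and 3′ UTR features only.

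Dpysl2 had 51.6, 102, 93.7, 52.1 and 55.1 CPM in BERKO replicates 2 to 6, against 52.2, 53.9, 38.0, 30.8, 34.0 and 72.4 CPM in WT replicates 1 to 6. BERKO replicates 3 and 4 were above the WT mice and the other 3 lay among them, with a log2 difference of 0.61 ± 0.26, and 0.55 ± 0.27 without the 3 WT libraries. Ndel1 had 83.2, 56.3, 58.1, 79.7 and 60.2 CPM in BERKO replicates 2 to 6, against 37.9, 62.1, 60.0, 60.5, 87.1 and 66.9 CPM in WT replicates 1 to 6, and no BERKO mouse was above every WT mouse. Its log2 difference was 0.11 ± 0.22. Cdk5rap2 ranged from 51.1 to 112 CPM in BERKO and from 43.3 to 107 CPM in WT, with a log2 difference of 0.10 ± 0.23. Without the 3 WT libraries the differences of Cdk5rap2 and Ndel1 changed sign, at -0.13 ± 0.22 and -0.016 ± 0.22.

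**Figure D2:**
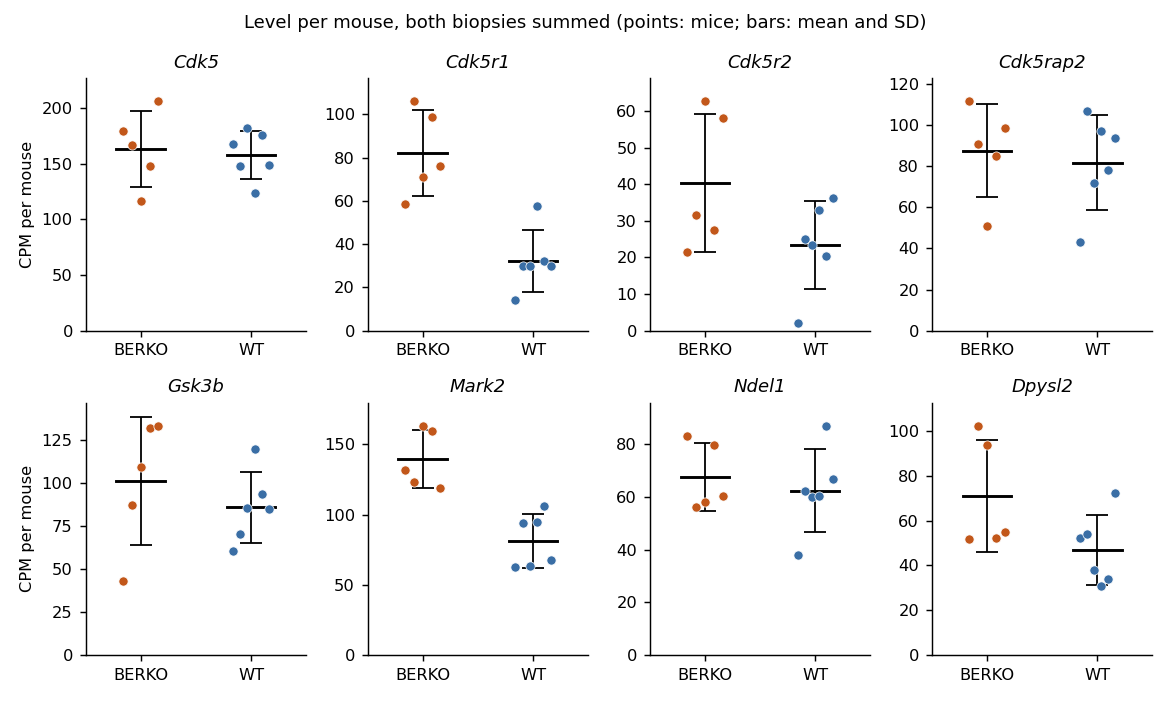
Each panel gives CPM per mouse (vertical axis, from 0) of one gene with both biopsies summed; points are the 5 BERKO mice at left and the 6 WT mice at right, and bars are the mean and SD. Cdk5r1 and Mark2 have every BERKO mouse above every WT mouse, and the other 6 genes overlap.

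In all, 2 of the 8 genes had every BERKO mouse above every WT mouse, a pattern found in 66 of the 9025 genes tested, or 0.731%. The fitted difference was above 0 for 8 of 8 genes and for 4442 of all 9025 genes. The median log2 difference was 0.42 for the 8 genes and -0.0069 for all genes. Since the genes were chosen with these differences known, nothing is read from these counts. Scaling to the spike-in RNA moved the median of all genes to 0.19, the Cdk5r1 difference to 1.59 and that of Mark2 to 0.96. Cdk5r1 and Mark2 were then among 45 called genes of 9025.

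By feature class, the higher level of Mark2 in BERKO was seen in its CDS features, while its start features had few reads. CDS features of Mark2 had 121 ± 24.7 CPM in BERKO mice, against 67.1 ± 15.7 CPM in WT mice (SD, n = 5 and 6), and all 5 BERKO mice were above every WT mouse. These features held 83.9% of Mark2 reads, so this largely repeats the pattern of the whole gene. How many of all genes had that pattern in CDS features was not counted, so nothing is read from it. Start features of Mark2 had 3.15 ± 2.05 CPM in BERKO, against 5.43 ± 3.61 CPM in WT, from 19 reads in BERKO and 76 reads in WT. WT replicate 1, whose libraries stood apart, had the largest start share of Mark2 among the mice, 17.1% of 175 reads. Dpysl2 was likewise uneven, with 36.0 ± 22.7 CPM in its 3′ UTR in BERKO against 15.1 ± 7.14 CPM in WT, while its start features had 28.0 ± 11.5 CPM in BERKO and 23.4 ± 9.02 CPM in WT. In Gsk3b, the 3′ UTR features had 71.6 ± 28.7 CPM in BERKO and 49.2 ± 12.8 CPM in WT, while CDS features had 25.7 ± 12.9 CPM in BERKO and 32.0 ± 7.76 CPM in WT. The start features of Cdk5, with 142 ± 31.1 CPM in BERKO and 144 ± 19.5 CPM in WT, and those of Ndel1, with 52.6 ± 12.3 CPM in BERKO and 52.4 ± 11.7 CPM in WT, were alike in mean. With promoter features only, the log2 difference was 0.077 ± 0.17 for Cdk5, 0.10 ± 0.23 for Ndel1 and 0.37 ± 0.33 for Dpysl2. The other 5 genes had too few start reads, or no start feature, for that fit. The library-wide share of CDS and 3′ UTR reads was higher in BERKO, as given above, and its part in these differences was not tested.

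**Figure D3:**
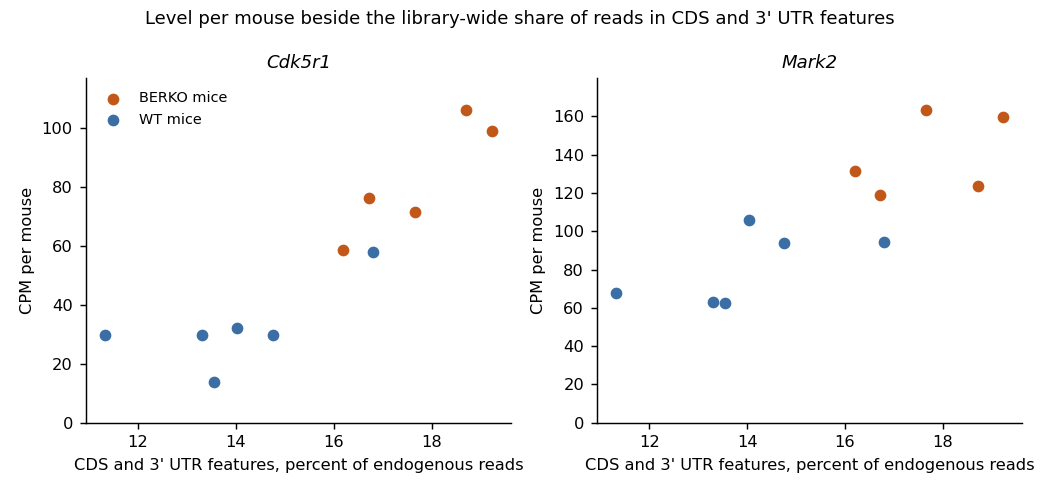
CPM per mouse of Cdk5r1 (left panel) and Mark2 (right panel) on the vertical axis, from 0, are set against the percent of that mouse's endogenous reads in CDS and 3′ UTR features on the horizontal axis; each point is 1 of 5 BERKO or 6 WT mice. BERKO mice lie at 16.2% to 19.2% and WT mice at 11.3% to 16.8%. Among WT mice, replicate 4, at 16.8%, has the highest Cdk5r1 level and replicate 1, at 13.6%, the lowest.

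The genotype difference was then followed on each side. In right biopsies, Cdk5r1 had 118, 138, 71.0, 114 and 81.3 CPM in BERKO replicates 2 to 6, against 17.0, 32.6, 27.7, 47.6, 49.2 and 23.5 CPM in WT replicates 1 to 6. Every BERKO right biopsy was above every WT right biopsy, which held for 0.542% of 8308 genes, and Cdk5r1 was the single one of the 8 genes with that pattern. Cdk5r1 was chosen for its call on both biopsies summed, which include these right biopsies, so nothing is read from that pattern. In left biopsies, Cdk5r1 had 5.78, 62.6, 71.9, 49.7 and 68.9 CPM in BERKO replicates 2 to 6, against 5.81, 24.7, 34.2, 71.9, 15.8 and 39.6 CPM in WT replicates 1 to 6. The left biopsies overlapped from end to end, with 4 reads in BERKO replicate 2 and 4 reads in WT replicate 1. None of the 8 genes had every BERKO left biopsy above every WT left biopsy, a pattern of 0.397% of the 8308 genes. On the right, the log2 difference of Cdk5r1 stood at 1.67 ± 0.31, and in left biopsies at 0.70 ± 0.54.

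Mark2 ran the same way, at 0.96 ± 0.25 on the right and 0.26 ± 0.27 on the left. Its right biopsies had 126 to 201 CPM in BERKO, against 47.4 to 134 CPM in WT, and its left biopsies 66.2 to 123 CPM in BERKO, against 61.4 to 118 CPM in WT. Cdk5r2 ran the other way, at 0.028 ± 0.50 on the right and 1.71 ± 0.59 on the left. Its left biopsies had 30.3, 52.7, 121, 16.6 and 75.0 CPM in BERKO replicates 2 to 6, against 0, 22.8, 14.5, 27.1, 10.5 and 37.6 CPM in WT replicates 1 to 6. Dpysl2 was at 0.38 ± 0.35 on the right and 1.20 ± 0.40 on the left. For Cdk5, Gsk3b, Ndel1 and Cdk5rap2, the differences lay between -0.19 and 0.29 on either side.

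None of these contrasts between the sides passed the threshold over all genes. As given at the start, they are not fully independent of the choice of genes. The difference of the genotype effect, right minus left, was 0.98 ± 0.63 for Cdk5r1, 0.70 ± 0.37 for Mark2, -1.67 ± 0.82 for Cdk5r2 and -0.80 ± 0.55 for Dpysl2, with an adjusted p of 0.999 for each in edgeR's quasi-likelihood test over 8308 genes. For the other 4 genes it lay between -0.27 and 0.33 on the log2 scale. That of Cdk5 was 0.15 ± 0.39 without the 3 WT libraries. No gene of the 8 was called, and 0% of the 8308 genes were, with 299 genes at an unadjusted p under 0.05 and none called by DESeq2 or limma-voom either. Of the 8 genes, Cdk5r2 alone had an unadjusted p under 0.05, at 0.0487, and at 0.0116 with the mouse as replicate block. Without BERKO replicate 2, whose left biopsy had 4 reads of Cdk5r1, the value for Cdk5r1 was 0.60 ± 0.59, and without BERKO replicate 4 that for Dpysl2 was -0.38 ± 0.58.

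**Figure D4:**
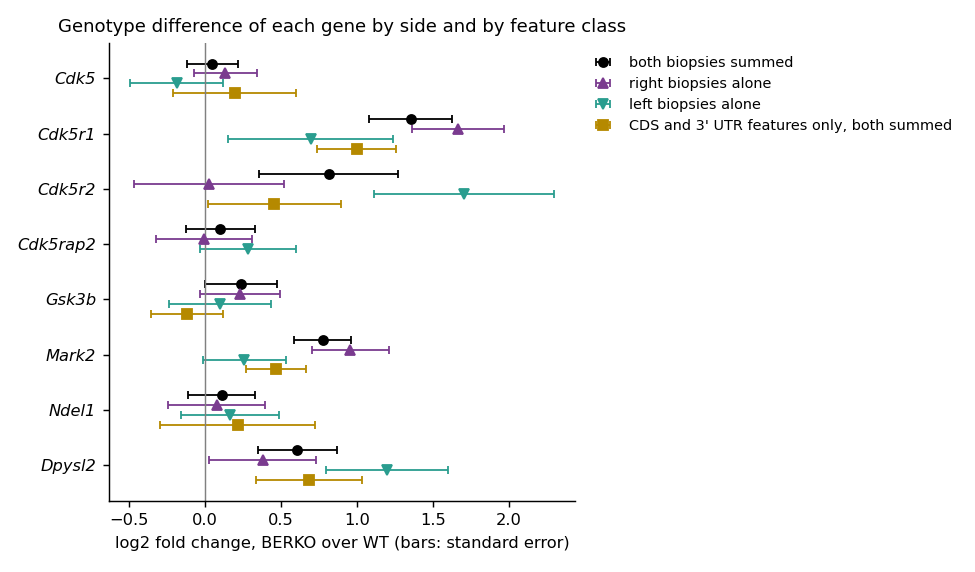
The horizontal axis gives the log2 fold change, BERKO over WT, with its standard error as bars, for both biopsies summed, right biopsies alone, left biopsies alone, and CDS and 3′ UTR features only. Cdk5r1 and Mark2 are farther from 0 on the right and Cdk5r2 and Dpysl2 on the left; Cdk5rap2 has no CDS or 3′ UTR value.

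The comparison of the right with the left biopsy asked whether the 2 hemispheres differed, a contrast that the choice of genes had not used. None of the 8 genes passed the threshold. Cdk5 came nearest, with a right over left log2 difference of 0.42 ± 0.18 (unadjusted p = 0.0291, adjusted p = 0.908, edgeR's quasi-likelihood test over 22 biopsies). Right biopsies had 148 to 251 CPM of Cdk5 in BERKO and 139.8 to 250.3 CPM in WT, and left biopsies 38.2 to 157 CPM in BERKO and 82.7 to 180.0 CPM in WT. The right biopsy was the higher one in 5 of 5 BERKO mice and in 2 of 6 WT mice. The highest WT right value was that of WT replicate 3, and the lowest BERKO left value that of BERKO replicate 4. In edgeR the difference was 0.29 ± 0.19 without WT replicate 3 (unadjusted p = 0.132). It was 0.33 ± 0.17 without BERKO replicate 4 (unadjusted p = 0.0665). With any one mouse left out it ran from 0.29 to 0.47. Cdk5r1 was at 0.53 ± 0.32 and Mark2 at 0.37 ± 0.18 (adjusted p = 0.968 and 0.945), and for both the right biopsy was higher in most mice, 7 of 11 for Cdk5r1 and 8 of 11 for Mark2. With the mouse as block in edgeR, Cdk5 was at 0.48 ± 0.18 (unadjusted p = 0.0140, adjusted p = 0.724). In that fit Cdk5r1 was at 0.70 ± 0.31 (unadjusted p = 0.0323, adjusted p = 0.791) and Mark2 at 0.34 ± 0.19 (adjusted p = 0.913).

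Gsk3b was higher on the right in 9 of 11 mice, with a log2 difference of 0.29 ± 0.21. The differences were 0.17 ± 0.27 for Dpysl2 (0.022 ± 0.28 without the 3 WT libraries), -0.20 ± 0.23 for Ndel1, -0.28 ± 0.41 for Cdk5r2 and -0.32 ± 0.23 for Cdk5rap2, and the adjusted p of these 5 genes lay between 0.968 and 0.997. Over all genes, 0% of 8308 were called, with 440 at an unadjusted p under 0.05, 1 called by DESeq2 and none by limma-voom. Tested feature by feature, 12 features of the 8 genes had enough reads, and none passed, as was true of all 11134 features (0%, with 468 at an unadjusted p under 0.05). The main Cdk5r1 feature was at 0.61 ± 0.33 and the main Cdk5 feature at 0.42 ± 0.20 (adjusted p = 0.9999 for both).

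The share of a gene's reads at its start was also compared between the sides in 5 genes with reads in both kinds of feature, by a two-sided exact permutation test over the 11 mice. Ndel1 had 84.8% ± 6.97 of its reads at its start on the right and 77.4% ± 21.2 on the left (SD, n = 11 mice), higher on the right in 8 of 11 mice, with an exact p of 0.265. Dpysl2 had 48.4% ± 18.9 on the right and 38.6% ± 27.1 on the left, with an exact p of 0.407. In Cdk5, Gsk3b and Mark2 the mean shares differed by less than 2 percentage points. The adjusted p was 0.906 for all 5 genes, where the smallest p the 11 mice allow is 0.000977.

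**Figure D5:**
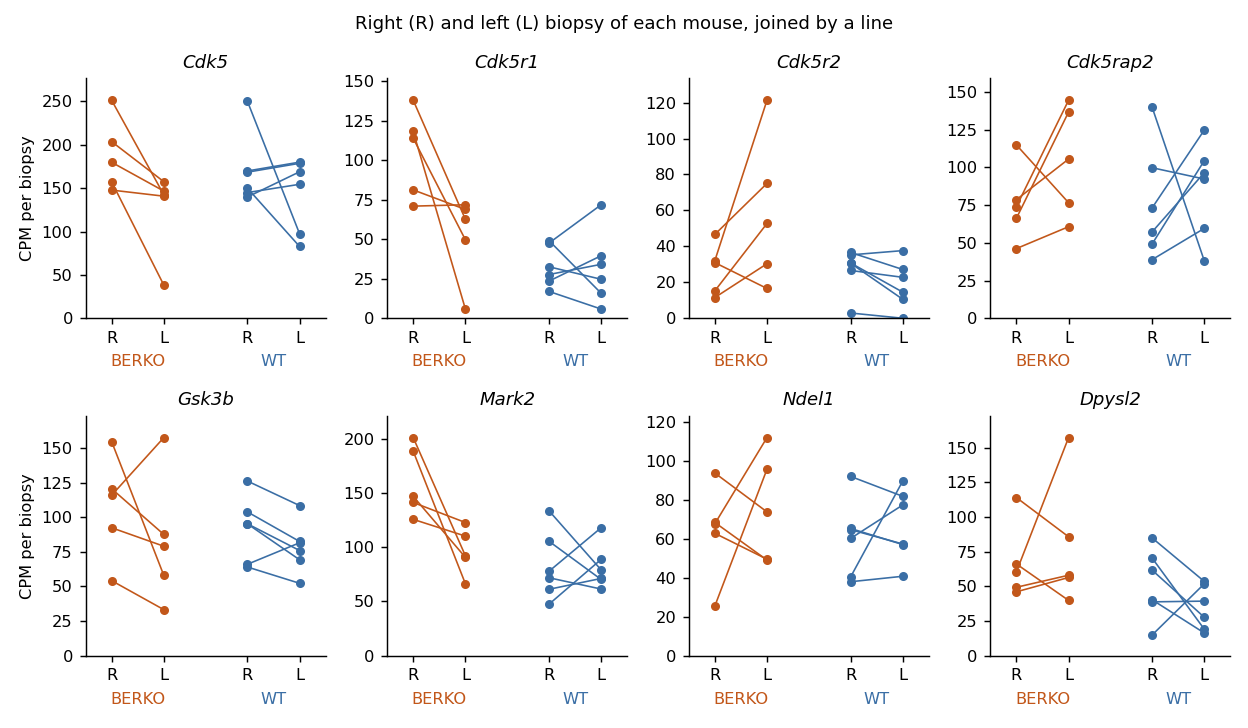
Each panel gives CPM per biopsy (vertical axis, from 0) of one gene, with the right (R) and left (L) biopsy of a mouse joined by a line, for 5 BERKO mice at left and 6 WT mice at right. Cdk5 and Mark2 are higher on the right in 5 of 5 BERKO mice, and the lines of the WT mice cross in both genes.

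Other genes of the same pathways were read in the genotype comparison, from 8 lists of 99 genes, of which 84 passed the filter. None of the 84 passed the threshold by edgeR or limma-voom, nor by DESeq2 where it gave an adjusted p. DESeq2 did so for 2724 genes, and how many of the 84 were among them was not counted. At an unadjusted p under 0.05 there were 11 of the 84, against 895 of all 9025 genes, and 53 of 84 had a difference above 0, with a median log2 difference of 0.12, against -0.0069 for all genes. The values that follow are those of the genes with the smallest p in each list and did not pass.

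Among regulators of Cdk5 and its activators, 9 of 13 genes were measured, with a median of 0.14. Egr1, an activity-induced transcription factor that induces Cdk5r1 in rat PC12 cells, had 121 ± 49.3 CPM in BERKO and 56.4 ± 28.6 CPM in WT (SD, n = 5 and 6), a log2 difference of 1.12 ± 0.43, and 4 of 5 BERKO mice were above every WT mouse. Cdk5rap3, first found as a binder of the p35 activator, was at -0.89 ± 0.30. Of 25 Cdk5 substrates 24 were measured, with a median of 0.25. Dab1, the adaptor of reelin signalling, had 254 ± 36.4 CPM in BERKO and 171 ± 40.0 CPM in WT, a log2 difference of 0.56 ± 0.17, and Dlg4, the postsynaptic scaffold PSD-95, was at 0.63 ± 0.22. Both had 4 of 5 BERKO mice above every WT mouse. How many of all genes had that pattern, also given for Egr1, was not counted, so nothing is read from it.

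The partners of the other members varied in direction. Of the 11 measured Gsk3 partners, Akt2, a kinase that inhibits Gsk3, had 139.8 ± 32.7 CPM in BERKO and 82.6 ± 26.5 CPM in WT, a log2 difference of 0.76 ± 0.22, and Gskip, a Gsk3-binding protein, was at -0.65 ± 0.32. In the Mark list, where 6 of 8 genes were measured, Mark1, a close relative of Mark2, was at 0.92 ± 0.37, with 30.9 ± 7.54 CPM in BERKO and 16.2 ± 8.72 CPM in WT. Strada, the pseudokinase that activates Lkb1, which lies upstream of the Mark kinases, was at -1.07 ± 0.46. Of 13 measured dynein and Lis1 partners of Ndel1, Dync1i1, a dynein intermediate chain, was at -0.43 ± 0.17 and Nde1, the close relative of Ndel1, at 0.58 ± 0.29. The 4 other Crmp genes, relatives of Dpysl2, lay between -0.24 and 0.49. Among 7 measured centrosome partners of Cdk5rap2, Tubgcp3, a subunit of the gamma-tubulin complex, was at -0.62 ± 0.23, and Akap9 at 0.42 ± 0.23. Among 10 other cyclin-dependent kinases, Cdk4, a cell cycle kinase, was at -0.57 ± 0.19 and Cdk8 at 0.76 ± 0.40.

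Markers of the cell types of cortex were read beside these genes. All 7 excitatory neuron markers were detected, and their summed level was 3688 to 5514 CPM in BERKO mice and 1989 to 4474 CPM in WT mice, with 6 of 6 tested markers above 0 in log2 difference. In the other lists, 1 of 6 inhibitory neuron, 7 of 7 astrocyte, 7 of 8 microglia, 4 of 4 endothelial, 7 of 7 oligodendrocyte and 2 of 4 oligodendrocyte precursor markers tested were above 0. The 7 inhibitory neuron markers summed to 779.8 to 1094 CPM in BERKO and 924.6 to 1156 CPM in WT. Sums of the 8 microglia markers were 829.4 to 1020 CPM in BERKO and 481 to 828.8 CPM in WT, and those of the 7 astrocyte markers 4794 to 6597 CPM in BERKO and 3781 to 6544 CPM in WT. The 7 endothelial markers summed to 216 to 306 CPM in BERKO and 95.4 to 231 CPM in WT, and the 7 oligodendrocyte markers to 5376 to 13835 CPM in BERKO and 2087 to 11558 CPM in WT. The 5 oligodendrocyte precursor markers summed to 152 to 269 CPM in BERKO and 119 to 242 CPM in WT. No marker was at 0, and none passed the genotype threshold. The part of the cell type mix in the levels of the 8 genes was not tested.

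The gene most like Cdk5r1 across the 22 biopsies, in deviations of log2 CPM from the mean of its group of genotype and side, was Eif5b, a translation initiation factor, with a Pearson r of 0.85. It was followed by Pclo, a presynaptic scaffold protein (0.83), Nrgn, a calmodulin-binding protein of excitatory neurons (0.80), Cabp1, a neuronal calcium sensor (0.78), and Ano3, an anoctamin family protein (0.77). Among 5418 genes with a mean of at least 20 reads per biopsy, the 95th percentile of r was 0.47. Of the other 7 genes, Gsk3b (0.62) and Cdk5r2 (0.58) lay above that percentile, Mark2 was at 0.12, and Cdk5 itself was at -0.46. These values are a description over biopsies that share mice, depth and plate position. Without the 3 WT libraries r was 0.56 for Gsk3b, 0.33 for Cdk5r2 and -0.43 for Cdk5, and 3 of the 5 named genes stayed among the top 5. By Spearman's rank correlation, 1 did.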

How the data were processed

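RNA 5′ ends were measured in 22 M1 cortex biopsies of 11 mice by STRT sequencing. The table deposited by the authors gives raw read counts for each feature, with mm9 position, strand and class. The deposited ratios per feature were not used. Per the submitters' processing notes, Bowtie, TopHat2 2.0.12 and mm9 were used; feature drawing and read filters are not given in the sources used here. All 64 columns were assigned from the side, genotype and mouse in their names, with the last digit read as the mouse, and lanes were summed. Of 112460 features, 38 spike-ins, 19 on spike-in sequences and 37 ribosomal ones were left out, and 95410 with a single symbol were summed to genes, which left out 4.88% of endogenous reads. Counts are reads after PCR, not molecules.

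Genotype was fitted on the sums per mouse and side on the biopsies (4 groups, no block) with edgeR 4.0.16 in R 4.3.3 (quasi-likelihood test, robust, two-sided, TMM, default expression filter), with Benjamini-Hochberg adjustment over all genes and a threshold of 0.05. Standard errors were taken as |log2 fold change|/√F. TMM factors ran from 0.948 to 1.09 and the common coefficient of variation was 36.7%. DESeq2 1.42.0, limma 3.58.1, other scalings, filters, feature classes, sides and left-out mice were alternatives, and the fits were tested on simulated data. Likeness used log2 CPM with a prior count of 2. Near copies were searched with BLAST 2.17.0 in GENCODE transcripts. Right and left biopsies of a mouse pair by the animal in the labels (r of deviations -0.13 to 0.36 over 11 pairs).

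The members and gene lists were chosen with earlier results of these data known. Named genes are the 8 members, of each pathway list those past the threshold or else the 2 with the smallest p, and the 5 genes most like Cdk5r1.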

Additional observations from a re-analysis of the deposited data

Results flagged for a closer look

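Of 48 sets of biopsies looked at (8 genes in 4 groups and in the 2 genotypes by mouse), 3 held a library far from the others, and chance alone marks about 1 in 20 such sets. Cdk5 was lowest in the left biopsy of BERKO replicate 4, at 38.2 CPM from 17 reads, where the next lowest BERKO left biopsy had 140.8 CPM. Cdk5 was highest in the right biopsy of WT replicate 3, at 250.3 CPM, where the next highest WT right biopsy had 169.8 CPM. Cdk5r2 was lowest in the right biopsy of WT replicate 1, at 2.91 CPM from 6 reads, where the next lowest WT right biopsy had 26.6 CPM. The left biopsy of the same mouse had 0 reads of Cdk5r2, and both biopsies are among the 3 WT libraries that stood apart.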

How the results depend on the processing

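Genes past the genotype threshold numbered 7. They numbered 45 with DESeq2 (of 2724 with an adjusted p) and 45 with spike-in scaling, 43 of these higher in BERKO, 14 without a filter, 1 with limma-voom, and 0 with left biopsies alone or with CDS and 3′ UTR features only. Leaving out 1 mouse gave 1 (without BERKO replicate 3) to 18 (without WT replicate 4), and the causes were not tested. Mouse numbers of BERKO and WT did not pair (r -0.033 to 0.055), and the replicate block over mice 2 to 6 gave 11 genes, against 7 without it. The side comparison called 0 genes, 1 with DESeq2 and 1 without the 3 WT libraries, and 0 to 1 when a mouse was left out. With the mouse as replicate block it called 0 genes and 0 features and changed no call. The pathway lists and the interaction stayed at 0 in all fits run, where DESeq2 covered only list genes with an adjusted p. Of the members' alternative genotype differences, 190 stayed within 1 SD between mice and 4 did not. With left biopsies alone these were Cdk5r1 at 0.70, Mark2 at 0.26 and Dpysl2 at 1.20, and with CDS and 3′ UTR features only Mark2 at 0.47. The SD is wide for Cdk5r2, at 0.98, so 0.028 on the right and 1.71 on the left both counted as within it. The fit over mice 2 to 6 without the block repeats that without WT replicate 1, and both were counted. The call of Cdk5r1 (edgeR, adjusted p = 0.0484) was lost with left biopsies alone, limma-voom, the stricter filter, and CDS and 3′ UTR features only. It was also lost without the 3 WT libraries and without the single-lane biopsy. The same held when any one mouse other than BERKO replicate 2 and WT replicates 1 and 4 was left out (adjusted p 0.0505 to 0.853 in all these fits). Spike-in scaling, RLE scaling, no filter, right biopsies alone and the replicate block kept the call (edgeR, adjusted p 0.00794 to 0.0470). DESeq2 gave Cdk5r1 no adjusted p (unadjusted p = 3.73e-06). No member was called by side or interaction in 22 alternatives each (adjusted p of at least 0.437 and 0.713). The fits on CDS and 3′ UTR features, without the single-lane biopsy, and over mice 2 to 6 without the block were chosen after seeing the data.

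Signs also turned, in no case with a call. The genotype difference of Gsk3b was -0.12 with CDS and 3′ UTR features only, and that of Cdk5 was -0.19 in left biopsies alone. With a mouse left out, the genotype difference ran from -0.045 to 0.15 for Cdk5, from -0.029 to 0.25 for Cdk5rap2 and from -0.00065 to 0.24 for Ndel1. For Cdk5rap2 it was -0.13 without the 3 WT libraries, -0.0032 in right biopsies alone and -0.055 with the replicate block. For Ndel1 it was -0.016 without the 3 WT libraries and -0.0018 with the replicate block. With CDS and 3′ UTR features only, the side difference of Dpysl2 was -0.072 and the interactions of Cdk5 and Gsk3b -0.54 and -0.11. The interaction of Ndel1 was 0.10 with promoter features only and 0.086 without the single-lane biopsy. With a mouse left out, the interaction ran from -0.58 to 0.13 for Cdk5rap2, from -0.12 to 0.48 for Gsk3b and from -0.29 to 0.22 for Ndel1, and the start share, right minus left, from -1.68 to 0.67 percentage points for Cdk5, -1.39 to 1.47 for Gsk3b and -3.12 to 0.97 for Mark2. The biopsies held 0 to 407 reads of a member, which limits what can be seen on 1 side.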
